A study of Mus musculus with 6 samples.

Results

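The mitochondrial ribosomal protein genes were taken from a table of 49671 mouse genes as the protein-coding genes whose symbol is Mrpl or Mrps followed by a number. The rule found 78 genes, 49 named for the large subunit (Mrpl) and 29 for the small subunit (Mrps). Enough reads to be tested were present for 77 of them. Mrpl53, the exception, had a single read in all 6 libraries, and 695 of its exon bases are shared with the same-strand gene Gm42688.

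The mitochondrial ribosome, or mitoribosome, translates the few messenger RNAs encoded by mitochondrial DNA, all of which specify subunits of the respiratory chain and ATP synthase. Its ribosomal RNAs come from mitochondrial DNA, but every one of its proteins is encoded in the nucleus, made in the cytosol and imported. The large subunit forms peptide bonds and the small subunit decodes the messenger RNA. Some of the proteins descend from the bacterial ribosome and others were added in the mitochondrial lineage. In bone marrow, quiescent blood stem cells are known for keeping mitochondrial respiration low and for raising it as they differentiate.

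The cells were LSK cells (Lineage-negative, Sca-1-positive, Kit-positive), a sorted fraction of marrow rich in blood stem cells and multipotent progenitors, from BALB/c mice. Marrow enriched for these cells was infected with a retrovirus whose short hairpin RNA targets Cxxc5 (shCxxc5), or with a retrovirus aimed at no mouse gene (shCtrl). GFP-positive LSK cells of several animals were pooled for each RNA sample, so that both groups carry the virus and GFP. Each group has 3 libraries, numbered 2, 3 and 4, and the labels give neither the meaning of a number nor the age of the animals. The hairpin lowers a transcript and does not delete a gene. Because the labels do not call the numbers separate infections, p-values here measure only the spread between libraries, which may be technical.

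Library totals lay between 15002414 and 27754019 counts. Cxxc5, whose product has a CXXC zinc finger that binds unmethylated CpG DNA, stood at 82.2, 59.9 and 57.9 CPM (counts scaled to a library of equal size) in shCtrl replicates 2, 3 and 4. It stood at 6.74, 17.4 and 17.9 CPM in the shCxxc5 libraries of those numbers, with no overlap (exact two-sided permutation p = 0.1, the smallest that 3 against 3 can give). The libraries numbered 2, in shCtrl and in shCxxc5 alike, were unlike the other 4. Ly6a, which encodes the sort antigen Sca-1, was at 46.4 and 33.1 CPM there and at 703 to 804 CPM in the other 4 libraries. A sort selects on the protein, which was not measured here, so the RNA level does not show how the cells were sorted. Kit stayed between 82.4 and 110 CPM in all 6. All 14 interferon-response genes listed were lower in replicate 2 (edgeR, adjusted p under 0.05, median log2 difference -2.8), beside 18.8% of all genes. The cause of these differences was not tested. The summed level of 14 megakaryocyte and platelet markers was 7421 CPM in shCtrl replicate 2, 1759 CPM in shCxxc5 replicate 2 and 353 to 544 CPM in the other 4. Replicates 3 and 4 of a group were close, yet their counts differed by more than counting noise (chi-square per tested gene of 2.30 in shCtrl and 2.24 in shCxxc5, against an expectation of about 1). For these reasons the hairpin groups were compared over all 6 libraries and again over replicates 3 and 4 alone. Neither comparison had a term for the replicate number. A fit with such a term (a replicate block) was run as an alternative.

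The 77 tested mitoribosomal genes differed in level, from 1.93 to 124 CPM as means over the 6 libraries. The middle 80% of them had an average log2 CPM between 4.51 and 6.52. The counts of all 78 members made up between 0.378% and 0.466% of a library. Per kilobase of annotated exon, the large subunit genes had a median of 25.1 CPM per kb (1.13 to 98.6) and the small subunit genes a median of 16.7 CPM per kb (1.52 to 50.0), as means over the 6 libraries. Mrpl34, Mrpl54 and Mrpl2 had the highest levels per length at 98.6, 82.3 and 80.0 CPM per kb. Mrpl48, Mrps36 and Mrpl23 had the lowest at 2.53, 1.52 and 1.13 CPM per kb. Mrps36, in spite of its symbol, is known as a component of the 2-oxoglutarate dehydrogenase complex. These levels are per annotated exon base, so a gene with a long rarely used exon reads low.

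Summed over the members, the level was 3720, 4309 and 4389 CPM in shCtrl replicates 2, 3 and 4 and 4178, 4672 and 4767 CPM in shCxxc5. Each shCxxc5 library was above the shCtrl library of its own number, but shCxxc5 replicate 2 lay below shCtrl replicates 3 and 4, so the groups overlapped. The large subunit sum was 2483, 2907 and 2976 CPM in shCtrl and 2820, 3158 and 3214 CPM in shCxxc5. The small subunit sum was 1238, 1402 and 1412 CPM in shCtrl and 1358, 1513 and 1553 CPM in shCxxc5. Both subunits therefore showed the same order of libraries. The small subunit share of the summed level was 33.3%, 32.5% and 32.2% in shCtrl replicates 2, 3 and 4. It was 32.5%, 32.4% and 32.6% in shCxxc5, inside the shCtrl range in every library. In bulk RNA, a different mix of cells and a different amount of RNA per cell cannot be told apart.

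Over all 6 libraries most mitoribosomal genes leaned higher in shCxxc5, yet none passed the test. The fitted log2 fold change was above 0 for 66 of 77 members, with a median of 0.13 beside -0.02 over all 14637 genes tested, of which 45.9% were above 0. The median was 0.16 for the large and 0.10 for the small subunit genes. These medians rested in part on single libraries. Without shCtrl replicate 2, 53 members were above 0, with a median of 0.06 (0.062 for the large and 0.047 for the small subunit genes). The median was 0.082 without shCxxc5 replicate 4, 0.205 without shCtrl replicate 4 and 0.21 without shCxxc5 replicate 2, and that of the small subunit genes was 0.18 and 0.197 in the latter 2 cases. Among 4720 genes in the middle 80% of the members' expression range (the expression-matched genes), it was -0.01. With edgeR's quasi-likelihood test and Benjamini-Hochberg adjustment, 0 of 77 members passed an adjusted p of 0.05, as did 0% of all genes. DESeq2 called 0 of 76 members, beside 0.0342% of all genes higher and 0.0956% lower. The same edgeR fit did not call the targeted gene Cxxc5 either (log2 fold change -2.25, adjusted p = 0.940). A count of 0 here therefore cannot show that the members were unchanged. The biological coefficient of variation, edgeR's measure of spread within groups, was 0.312 in this fit and 0.0294 in that of replicates 3 and 4. At an unadjusted p under 0.05, 4 members were higher and 0 lower, beside 1.78% of all genes higher and 2.15% lower.

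The 4 were Mrpl18, Mrpl51, Mrpl37 and Mrpl49. Mrpl18, the counterpart of the bacterial protein that holds 5S rRNA, had 70.4, 82.7 and 84.5 CPM in shCtrl replicates 2, 3 and 4. It had 96.2, 103 and 106 CPM in shCxxc5, so that its lowest shCxxc5 library was above its highest shCtrl library. The group means were 79.2 ± 7.68 and 102 ± 5.15 CPM (SD, n = 3), and the log2 fold change was 0.36 (SE 0.10, adjusted p = 0.940 in edgeR's fit). Groups without overlap, higher in shCxxc5, were found for 14 members (12 large, 2 small) beside 6.72% of all genes, and lower for 0 members beside 6.35%. The 2 small subunit genes were Mrps22 and Mrps9.

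Within pairs of equal number, 46 of 77 members were higher in shCxxc5 in all 3 pairs (31 large, 15 small), beside 19.0% of all genes. A single member, Mrpl57, was lower in all 3, beside 22.4% of all genes, with log2 ratios of -0.01, -0.06 and -0.07. The median log2 ratio of the large subunit genes was 0.20, 0.14 and 0.13 in pairs 2, 3 and 4. That of the small subunit genes was 0.13, 0.10 and 0.15. Neither subunit was ahead in every pair, and all tested genes had medians between -0.038 and -0.005. Nuclear respiratory chain genes leaned the same way, with 37 of 82 higher in all 3 pairs and 3 lower. The widest member ratios came from pair 2, with Mrps22 at 0.84, Mrpl1 at 0.75 and Mrpl52 at -0.48.

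**Figure D1:**
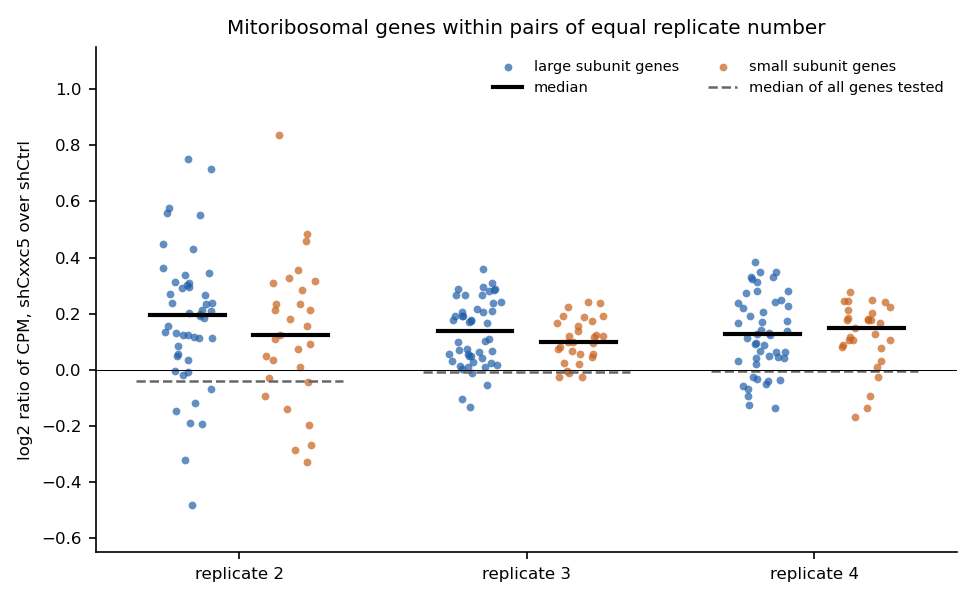
Each point is a tested member, the y axis is the log2 ratio of CPM (shCxxc5 over shCtrl) and the x axis is the replicate number the 2 libraries share, with large subunit genes in blue, small subunit genes in orange, black lines at their medians and dashed lines at the median of all tested genes. The medians of both subunits lie above 0 in all 3 pairs, and the points spread most in replicate 2.

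In replicates 3 and 4, 27 of 77 mitoribosomal genes rose in shCxxc5 and 0 fell (edgeR's quasi-likelihood test, adjusted p under 0.05), beside 11% of all 14193 genes higher and 9.00% lower. They comprised 19 of 48 large and 8 of 29 small subunit genes. Of the expression-matched genes, 12.2% were higher and 11.6% lower. Among 3311 protein-coding genes matched in expression and also in exon length, a set added after the data had been seen, 13.6% were higher and 11.5% lower. The rises were small, from a log2 fold change of 0.15 for Mrps26 (1.11-fold) to 0.36 for Mrpl51 (1.29-fold). The median over the 77 members was 0.14, with 0.14 for the large and 0.15 for the small subunit genes, beside 0.00 for all genes and 0.01 for the expression-matched genes. Both shCxxc5 libraries lay above both shCtrl libraries for 55 members, beside 27.8% of all genes, and below them for 2, Mrpl45 and Mrpl57, beside 29.4%.

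The count of 27 depended on the library set and the tool, while its direction did not. Without shCtrl replicate 3, 9 members were higher (beside 5.61% of all genes). Without shCxxc5 replicate 3 they were 15 (beside 5.82%), and without shCxxc5 replicate 4 they were 14 (beside 6.51%). DESeq2 called 9 of 76 higher (8 large, 1 small), beside 5.53% of all genes. With library totals in place of scaling factors 18 members were higher (beside 7.89%) and 0 lower. That setting turned the split of all genes from 1555 higher and 1278 lower to 1120 higher and 1606 lower. Mrpl18, Mrpl36, Mrpl12, Mrpl20 and Mrpl11 passed in all 13 alternatives run.

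**Figure D2:**
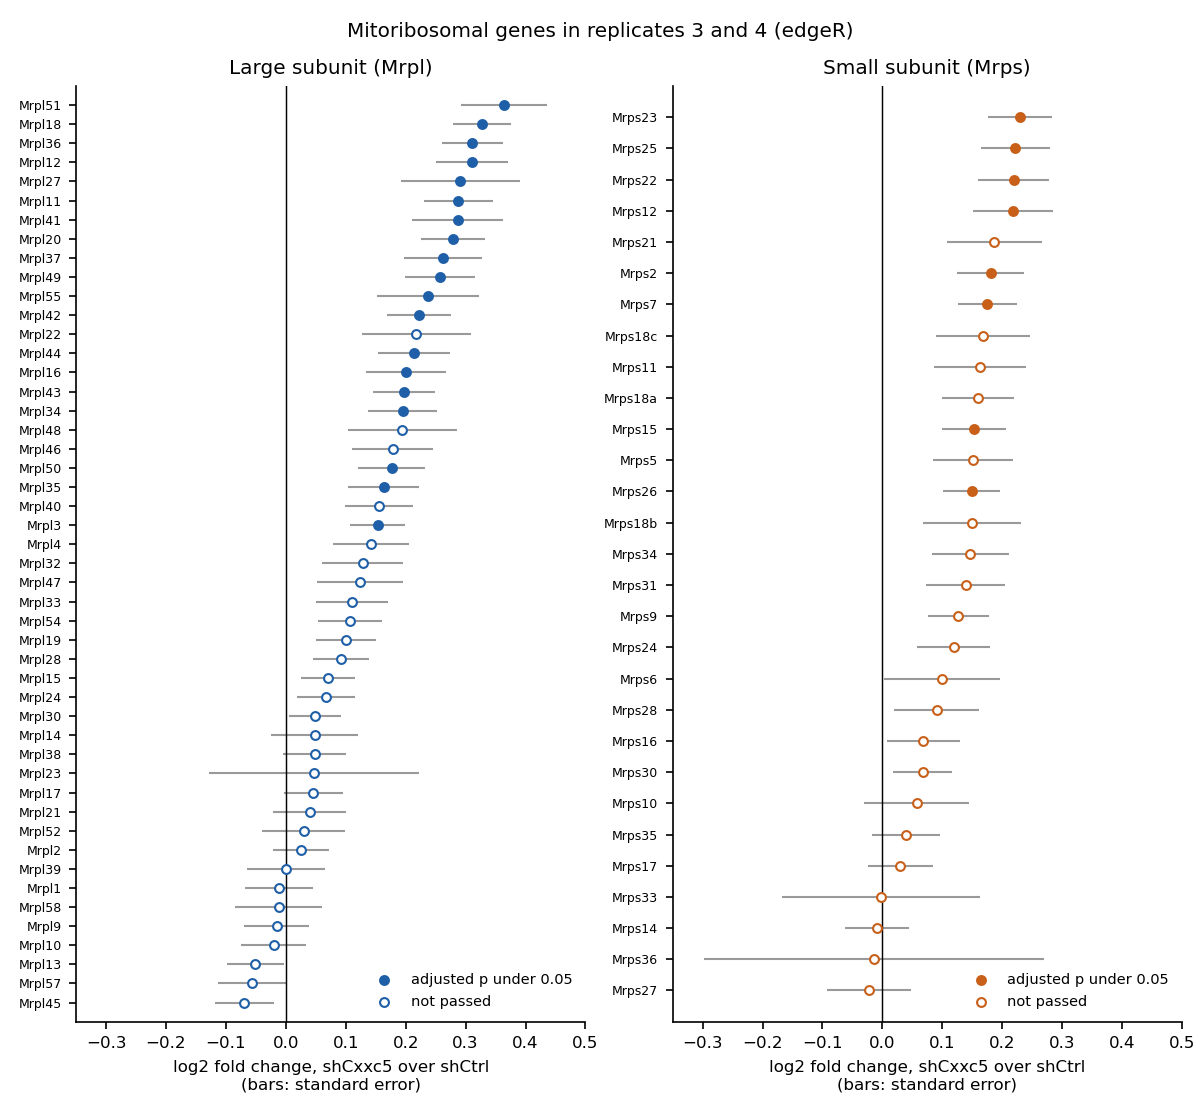
Log2 fold change of each tested member in replicates 3 and 4 (x axis, shCxxc5 over shCtrl, bars are the SE of edgeR's fit), with large subunit genes left and small subunit genes right and filled points for an adjusted p under 0.05. Filled points run from 0.15 to 0.36, and no filled point lies below 0.

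Mrpl18 had the smallest p among the members in these 4 libraries. Its values of 82.7 and 84.5 CPM in shCtrl against 103 and 106 CPM in shCxxc5 gave a log2 fold change of 0.33 (SE 0.05, edgeR adjusted p = 9.15e-06). The gene lies on the minus strand at chr17:12911349-12916345 (GRCm38) and shares 141 exon bases with Tcp1 on the other strand. The strand setting of the counting was not given in the sources used here, and reads in such a stretch could belong to either gene. Of the 27 genes that rose, 11 share exon bases with a gene on the other strand, 2 with one on the same strand and 15 with none.

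Mrpl36, the counterpart of the smallest bacterial large subunit protein, had 70.3 and 69.4 CPM in shCtrl replicates 3 and 4 and 85.7 and 87.3 CPM in shCxxc5. Its replicate 2 libraries were at 65.6 and 70.9 CPM, lower than the rest of their own groups but in the same order. The log2 fold change in replicates 3 and 4 was 0.31 (SE 0.05, edgeR adjusted p = 4.51e-05).

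Mrpl12 is a protein of the L7/L12 stalk, which recruits translation factors, and it has also been described as binding the mitochondrial RNA polymerase. Its level was 53.3 and 56.8 CPM in shCtrl replicates 3 and 4 and 65.3 and 70.7 CPM in shCxxc5 (log2 fold change 0.31, SE 0.06, edgeR adjusted p = 0.000337). Replicate 2 was far lower, at 40.4 CPM in shCtrl and 46.7 CPM in shCxxc5, so the 6 libraries overlapped. Mrpl10, which anchors that stalk, did not follow it. Its 77.6 and 81.8 CPM in shCtrl replicates 3 and 4 stood against 81.3 and 74.5 CPM in shCxxc5, a log2 fold change of -0.02 (SE 0.05, edgeR adjusted p = 0.854). Mrpl11, at the base of the same stalk, had 55.3 and 57.9 CPM in shCtrl and 67.6 and 70.0 CPM in shCxxc5, with a log2 fold change of 0.29 (SE 0.06, edgeR adjusted p = 0.000451).

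Mrpl51, a protein found in mitochondrial ribosomes only, had the largest log2 fold change of the members. It was at 35.7 and 40.0 CPM in shCtrl replicates 3 and 4 and at 45.9 and 50.9 CPM in shCxxc5, and its replicate 2 libraries, at 37.7 and 44.4 CPM, kept the order. Its adjusted p in edgeR's fit was 0.000462, and 0.0660 without shCtrl replicate 3. Mrpl20, which has a bacterial counterpart, had 67.0 and 70.8 CPM in shCtrl replicates 3 and 4 and 80.6 and 85.9 CPM in shCxxc5 (log2 fold change 0.28, edgeR adjusted p = 0.000366). In replicate 2 it was at 82.9 CPM in shCtrl and 86.1 CPM in shCxxc5, both near the shCxxc5 libraries of replicates 3 and 4.

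Among the small subunit genes, Mrps23 had the smallest p. It was at 65.9 and 65.3 CPM in shCtrl replicates 3 and 4 and at 78.0 and 75.3 CPM in shCxxc5, a log2 fold change of 0.23 (SE 0.05, edgeR adjusted p = 0.00220). In replicate 2 the order was the other way round, at 67.7 CPM in shCtrl and 63.4 CPM in shCxxc5. Mrps22 had 51.3 and 51.1 CPM in shCtrl and 60.6 and 58.0 CPM in shCxxc5 (log2 fold change 0.22, edgeR adjusted p = 0.00843). Its replicate 2 pair differed far more, at 31.7 CPM in shCtrl and 56.8 CPM in shCxxc5. Mutations in human MRPS22 are known to cause mitochondrial disease.

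The other small subunit genes that rose were Mrps25, Mrps12, Mrps2, Mrps7, Mrps15 and Mrps26. None of them, nor Mrps22, passed with DESeq2. With a library left out, the log2 fold change ran from 0.195 to 0.245 for Mrps12 and from 0.12 to 0.219 for Mrps7. Mrps12, whose bacterial counterpart monitors codon pairing at the decoding centre, had 38.6 and 37.1 CPM in shCtrl replicates 3 and 4 and 44.1 and 43.9 CPM in shCxxc5 (log2 fold change 0.22, edgeR adjusted p = 0.0197). Mrps7, a rRNA-binding protein of the small subunit head, had 83.0 and 88.5 CPM against 96.9 and 95.4 CPM (log2 fold change 0.18, edgeR adjusted p = 0.0111). Mrps25 had 54.2 and 52.2 CPM against 60.8 and 63.3 CPM, but 4590 of its 6576 exon bases overlap Nr2c2 on the other strand.

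**Figure D3:**
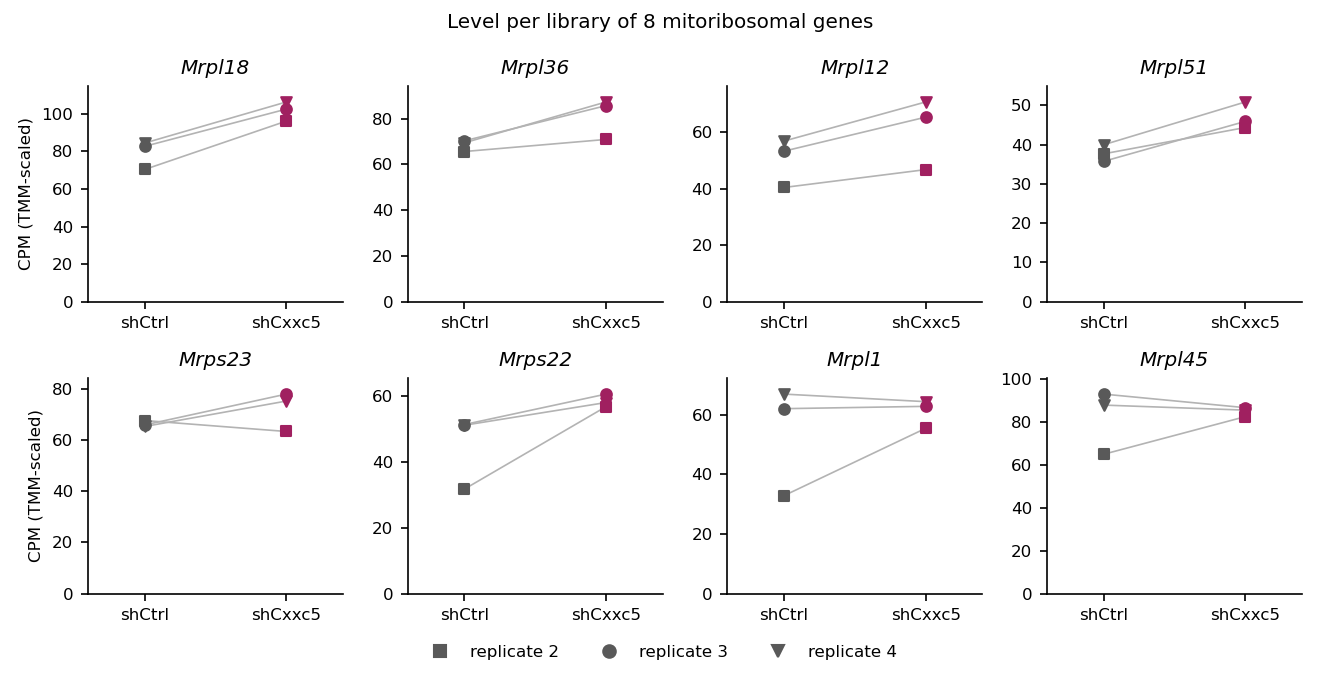
CPM (y axis, scaled by the trimmed mean of M-values) of 8 members in each library, with shCtrl left in grey and shCxxc5 right in magenta, symbols for the replicate number and lines joining libraries of equal number. Mrpl18 and Mrpl51 rise along all 3 lines, Mrps23 falls in replicate 2, and Mrpl1 and Mrpl45 are flat or lower in replicates 3 and 4 but rise in replicate 2.

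Of the 77 members, 11 had a log2 fold change below 0 in replicates 3 and 4, and none of these passed. The lowest were Mrpl45 at -0.07, Mrpl57 at -0.06 and Mrpl13 at -0.05, with edgeR adjusted p of 0.366, 0.561 and 0.515. Mrpl45 sits near the exit of the peptide tunnel and ties the ribosome to the inner membrane. It had 92.9 and 87.8 CPM in shCtrl and 86.6 and 85.4 CPM in shCxxc5. Mrpl1, of the mobile stalk beside the tRNA exit site, had 62.0 and 66.9 CPM in shCtrl and 62.8 and 64.4 CPM in shCxxc5, so its groups overlapped. Mrpl58 (ICT1), a peptidyl-tRNA hydrolase built into the large subunit, was likewise unseparated at 36.4 and 34.6 CPM against 36.6 and 33.5 CPM. Mrps36 and Mrpl23, the members of lowest level per length, had log2 fold changes of -0.01 (SE 0.28) and 0.05 (SE 0.18), too imprecise to show a change of the size seen in the others. Mrps36 and Mrpl23 also have processed pseudogene copies in the annotation, with at most 16 counts in any library, and Mrpl48 has a copy with 55 to 103 counts.

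The rises were spread over old and new proteins of the ribosome. Of the large subunit genes with a bacterial homologue, 10 of 29 rose (median log2 fold change 0.11). Of those specific to mitochondria, 8 of 20 did (median 0.17). In the small subunit the counts were 4 of 16 with a bacterial homologue (median 0.14) and 4 of 10 specific to mitochondria (median 0.15). Mrpl44, a large subunit protein with a ribonuclease III-like fold, was among the mitochondria-specific genes that rose, from 52.5 and 49.2 CPM to 59.4 and 58.6 CPM (log2 fold change 0.21, edgeR adjusted p = 0.0110). These lists leave out Mrpl55, which rose, and Mrps36.

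Symbol and structure disagree for a few members. The products of Mrps30 and Mrps18a sit in the large subunit of the mammalian mitoribosome. Counting subunits by structure, 19 of 50 large and 8 of 26 small subunit genes rose, with medians of 0.14 and 0.15, the same picture as by symbol. Mrps18a, Mrps18b and Mrps18c are related genes that each supply a protein to different places in the mitoribosome. Their log2 fold changes were 0.16, 0.15 and 0.17, with edgeR adjusted p of 0.0614, 0.220 and 0.133. None of them passed, although with a replicate block Mrps18a did (adjusted p = 0.0461). In replicates 3 and 4, Mrps18c had 28.6 and 26.4 CPM in shCtrl and 31.0 and 30.9 CPM in shCxxc5, while Mrps30 had 84.1 and 83.7 CPM against 85.2 and 90.2 CPM.

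The pair of replicate 2 libraries took no part in choosing the 27 genes. There, 24 of the 27 were higher in shCxxc5, with a median log2 ratio of 0.22, and Mrpl50, Mrps23 and Mrps26 were lower. Of all 1555 genes that rose in replicates 3 and 4, 68.0% were higher in pair 2, with a median of 0.12. Of all members, 59 of 77 were higher in pair 2. Cell markers differed widely within that pair. The summed granulocyte and monocyte progenitor markers were at 835 CPM in shCtrl and 5847 CPM in shCxxc5 (median log2 ratio 2.39), and the erythroid markers at 848 and 1432 CPM (median 1.39). The megakaryocyte and platelet markers went the other way, with a median of -2.30. The part of these markers in the pair 2 ratios of the members was not tested.

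A term for the difference between the hairpin effect in replicate 2 and in replicates 3 and 4 passed in edgeR's fit for 18 of 77 members, 10 with a larger log2 fold change in replicate 2 and 8 with a smaller. Both are smaller shares than the 16.8% and 19.0% of all genes that passed. DESeq2 called 6 larger and 0 smaller, beside 8.29% and 8.03% of all genes, and on library totals 16 were larger and 3 smaller, beside 19.5% and 15.9%. The largest was Mrpl1, whose shCtrl replicate 2 library had 32.9 CPM and shCxxc5 replicate 2 library 55.5 CPM, beside 62.0 to 66.9 CPM in the other 4. Mrpl52 was the most negative, at 49.5 CPM in shCtrl replicate 2, 35.4 CPM in shCxxc5 replicate 2 and 37.2 to 39.5 CPM elsewhere. This fit has 1 replicate 2 library in each group, and its spread comes from replicates 3 and 4 alone.

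By its median, the contrast between replicate 2 and the other replicates was wider than that between hairpins. With the group as a term, 37 of 77 members (24 large, 13 small) were lower in replicate 2 and 0 were higher (edgeR, adjusted p under 0.05), beside 18.8% of all genes lower and 18.1% higher. The median log2 difference was -0.26, with -0.23 for the large and -0.27 for the small subunit genes, beside 0.00 for all genes and -0.04 for the expression-matched genes. Nuclear respiratory chain genes leaned the same way, with 31 of 82 lower and 1 higher (median -0.19). Cytosolic ribosomal protein genes had 29 of 83 lower and 8 higher (median -0.16). Both replicate 2 libraries were below the other 4 for 41 members, beside 24.5% of all genes, and above them for 3, beside 25.0%. Without shCtrl replicate 3, 11 members were lower, near the 10.8% of all genes that were. Without shCtrl replicate 4 they were 15 (beside 11.7% of all genes), without shCxxc5 replicate 3 they were 17 (beside 12.4%) and without shCxxc5 replicate 4 they were 14 (beside 12.6%), with 0 higher in each case. Without shCtrl replicate 2, 44 were lower and 3 higher, beside 25.5% and 22.5% of all genes. Without shCxxc5 replicate 2, 52 were lower and 6 higher, beside 29.8% and 28.6%. On library totals 21 were lower and 2 higher, beside 14% and 22.2%.

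Mrps31 differed most, with 24.3 and 34.1 CPM in replicate 2 of shCtrl and shCxxc5 and 42.3 to 50.0 CPM in the other 4 libraries (log2 difference -0.71, SE 0.11, edgeR adjusted p = 0.00389). Mrpl30, the member of highest CPM, had 91.8 and 105 CPM in replicate 2 and 132 to 141 CPM elsewhere (log2 difference -0.48, edgeR adjusted p = 0.00216). Mrpl22, a protein of the peptide tunnel wall, had 13.9 and 14.4 CPM against 19.8 to 24.7 CPM (log2 difference -0.62, edgeR adjusted p = 0.00610). Mrps24 and Mrps7 were lower by the same test, at -0.42 and -0.34. Among members with a difference above 0, the small subunit genes of smallest p were Mrps11 at 0.28, Mrps5 at 0.16 and Mrps17 at 0.10, and the large subunit genes Mrpl57 at 0.13, Mrpl20 at 0.15 and Mrpl23 at 0.27. None of these 6 passed.

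**Figure D4:**
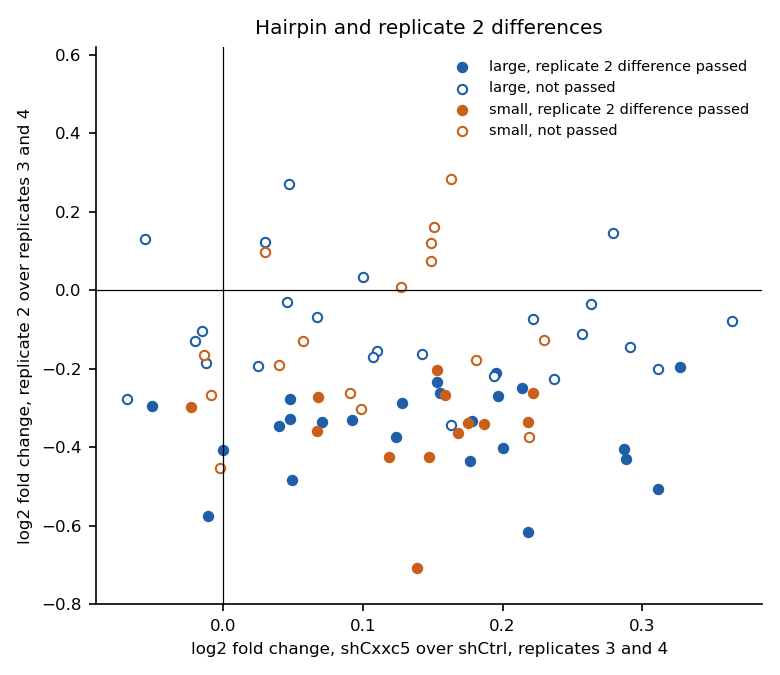
Each point is a tested member, with its hairpin log2 fold change in replicates 3 and 4 on the x axis and the log2 difference of replicate 2 from replicates 3 and 4 on the y axis, filled where the latter passed (adjusted p under 0.05) and coloured by subunit. Filled points all lie below 0 on the y axis and are spread along the x axis.

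Markers of other cells moved with both contrasts. In replicates 3 and 4, 6 of 12 tested megakaryocyte and platelet markers fell in shCxxc5 and 0 rose (median log2 fold change -0.60), with summed levels of 544 and 538 CPM in shCtrl and 360 and 353 CPM in shCxxc5. Of 9 erythroid markers 4 fell and 1, Tfrc, rose (median log2 fold change -0.48). Of 11 granulocyte and monocyte progenitor markers 3 fell, Csf3r and Csf1r among them. In that list 4 rose, Prtn3 by 0.53 and Mpo by 0.16, and the median was 0.01. The erythroid sum was 530 and 548 CPM in shCtrl and 617 and 585 CPM in shCxxc5. It ran opposite to most of its genes, since 8 of the 9 were lower in both pairs. The granulocyte and monocyte sum was 1068 and 1113 CPM against 1260 and 1269 CPM, although that list was split. Such sums follow their most abundant genes. A list of 6 surface marker genes of LSK and stem cells held Ly6a, Kit, Cd34, Flt3, Slamf1 and Procr. Of these only Ly6a and Kit belong to the definition of LSK cells given above. In that list 2 fell, Ly6a by 0.16 and Slamf1 by 0.29, and 1 rose, Cd34 by 0.09. Of 14 interferon-response genes, 4 fell and 1 rose. In replicate 2, all 14 megakaryocyte markers and 10 of 11 erythroid markers were higher and all 14 interferon-response genes lower than in replicates 3 and 4. The granulocyte and monocyte list had 3 of 11 higher and 2 lower there. Of the 6 surface marker genes Slamf1 was higher and Ly6a, Cd34 and Flt3 lower. The alpha-globin genes Hba-a1 and Hba-a2 were at 0 or close to it in every library, and no megakaryocyte marker was at 0. The part of these cell markers in the mitoribosomal differences was not tested.

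Mitoribosomal proteins that carry other symbols were measured for 5 genes (median log2 fold change 0.13 in replicates 3 and 4). Ptcd3 and Chchd1 rose, at 0.15 each, and Dap3, a GTP-binding small subunit protein, stood at -0.08 without passing. With a replicate block Gadd45gip1 and Aurkaip1 passed as well (adjusted p = 0.0472 and 0.0429). Of 27 genes for assembly of the mitoribosome and modification of its rRNA, 5 rose and 1 fell (median 0.05). Rcc1l, an assembly factor, rose by 0.31 and Noa1, a GTPase of small subunit assembly, by 0.23. Tfb1m, which dimethylates the small subunit rRNA, fell by 0.26 on the log2 scale, from 30.8 and 31.4 CPM to 25.4 and 26.6 CPM. Of 16 translation factors 2 rose and 1 fell (median 0.05), among them the elongation factor Gfm1 at 0.15 and the membrane insertase Oxa1l at -0.19. Of 20 mitochondrial aminoacyl-tRNA synthetase genes, which charge the tRNAs, 2 rose (Yars2 and Mars2) and 0 fell, with a median of 0.02. With a replicate block in edgeR's fit Wars2 and Lars2 passed as lower (adjusted p = 0.0372 and 1.88e-12). Without it their adjusted p was 0.0532 and 0.605. The log2 fold change of Lars2 was -1.02 without the block and -0.92 with it, so its call rests on the block. The shares of translation factors and synthetases that rose were close to the 11% of all genes.

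Genes for transcription of mitochondrial DNA and processing of its RNA had 4 of 17 higher and 1 lower (median 0.12). Elac2 and Trmt10c, which cut and modify mitochondrial tRNAs, rose by 0.20 and 0.19, and Mterf2 fell by 0.64 on the log2 scale at a level of 6.11 to 11.2 CPM. Of 8 regulators of nuclear genes for mitochondria, only Pprc1, a relative of the PGC-1 coactivators, rose (log2 fold change 0.20, edgeR adjusted p = 0.0416). Nrf1, at -0.01, and Gabpb1, at -0.06, did not pass. Nuclear respiratory chain and ATP synthase genes had 15 of 82 higher and 2 lower, with a median of 0.07. Cytosolic ribosomal protein genes had 10 of 82 higher and 5 lower, with a median of 0.02. All of these shares stand beside the same 11% and 9.00% of all genes, and no difference between lists was tested.

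**Figure D5:**
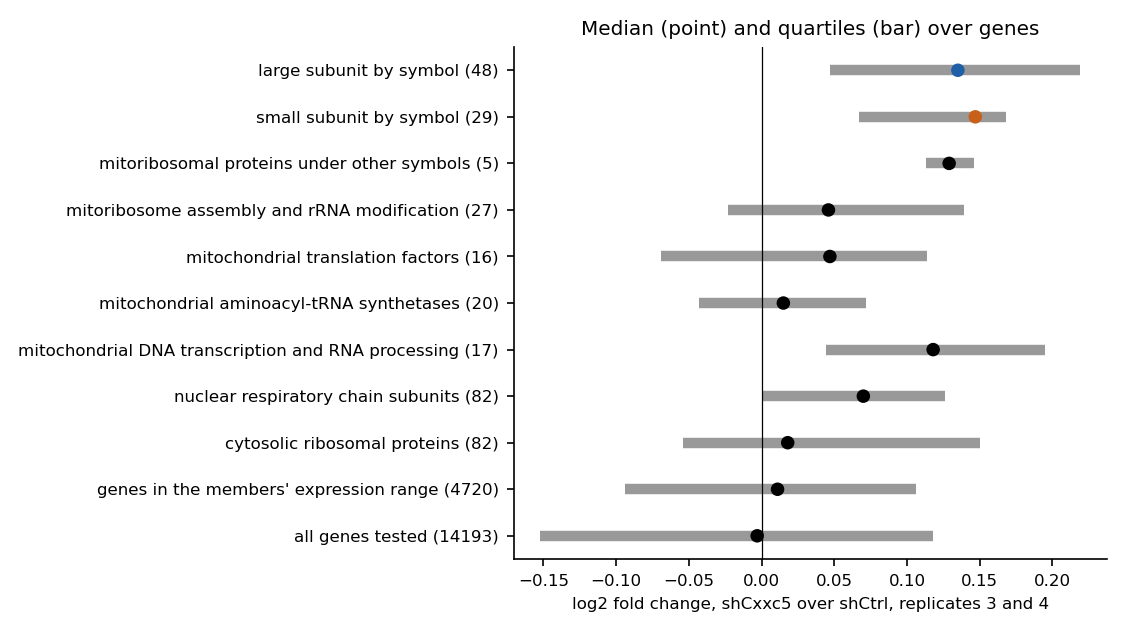
Median (point) and quartiles (bar) over genes of the log2 fold change in replicates 3 and 4 (x axis), with a row for each gene list and the number of tested genes in brackets. The large and small subunit medians are 0.14 and 0.15. Closest below are mitoribosomal proteins under other symbols (0.13), mitochondrial DNA transcription and RNA processing (0.12) and nuclear respiratory chain subunits (0.07). Cytosolic ribosomal proteins (0.02) and all genes tested (0.00) lie lower.

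The RNAs the mitoribosome translates, and its own rRNAs, are encoded by mitochondrial DNA. Of 13 such messenger RNAs 6 had no count in any library: mt-Atp6, mt-Atp8, mt-Co2, mt-Co3, mt-Nd3 and mt-Nd4l. A count of 0 there does not show that the RNA was absent, and its cause was not tested. The other 7 were tested, of which 5 rose and 1 fell in replicates 3 and 4. The most abundant of these 7, mt-Co1, was the gene that fell, from 5885 and 5895 CPM to 5237 and 5404 CPM (log2 fold change -0.14, edgeR adjusted p = 0.000822). In replicate 2 it was at 2978 CPM in shCtrl and 4989 CPM in shCxxc5. With a replicate block mt-Nd4 rose too (adjusted p = 0.00201). The rRNAs mt-Rnr1 and mt-Rnr2 did not pass, both at 0.08 (adjusted p = 0.0210 for mt-Rnr2 with the block), in a library kind that selects polyadenylated RNA.

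Promoters were examined because many members rose together and because the product of Cxxc5 binds CpG DNA. RefSeq windows (GRCm38.p6) from 250 bases before to 50 after a start were found for 69 members (75 windows). They held a median of 21 CpG dinucleotides, beside 20 in windows of tested genes and 7 in all 32851 windows. Windows of the members that rose had a median of 18, and those of tested members that did not pass 23. Both strands were searched for 4 motifs, none of which contains another. The ETS motif CCGGAAG was in 34.7% of member windows, beside 17.2% of tested-gene windows and 8.86% of all windows. The YY1 motif ATGGCGGC was in 16.0%, beside 4.60% and 2.24%, and the NRF1 motif in 17.3%, beside 9.74% and 4.60%. The E-box CACGTG was in 9.33%, beside 9.90% and 7.15%. Among windows of members that rose, the shares were 37.0% for ETS, 14.8% for YY1, 11.1% for NRF1 and 11.1% for the E-box. Among those of members that did not pass they were 31.9%, 14.9%, 21.3% and 8.51%. All these shares are of windows and not of genes. The overlapping windows of Mrpl2, which did not pass, each hold an E-box and were counted separately, so the E-box shares are raised by 1 gene. A match describes the letters and does not show binding.

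Exon-free stretches before the starts of Mrpl12 and Mrpl20 are shown. Both genes rose in every alternative run for replicates 3 and 4, and each stretch holds a motif match. Mrpl18, Mrpl36 and Mrpl11 also rose in every alternative but are not shown. The Mrpl18 window has 0 exon-free bases before its start, and the exon-free stretch of Mrpl36 and the Mrpl11 window hold no match. Both stretches shown are on the plus strand, at chr11:120484463-120484612 for Mrpl12 and chr4:155802728-155802877 for Mrpl20, from RefSeq's GRCm38.p6 windows. That of Mrpl12 runs from base 174 to base 25 before RefSeq's start, and that of Mrpl20 from base 150 to base 1. Capitals mark the NRF1 match in Mrpl12 and the E-box in Mrpl20.
Mrpl12: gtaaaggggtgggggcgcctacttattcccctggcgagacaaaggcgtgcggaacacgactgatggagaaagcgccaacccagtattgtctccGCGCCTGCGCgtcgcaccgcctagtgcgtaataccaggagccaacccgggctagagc
Mrpl20: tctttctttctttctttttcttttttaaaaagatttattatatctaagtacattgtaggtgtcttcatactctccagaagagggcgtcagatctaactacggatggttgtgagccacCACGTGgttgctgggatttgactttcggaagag
The Mrpl12 stretch holds 14 CpG dinucleotides and the Mrpl20 stretch, which opens with a pyrimidine-rich repeat, holds 4. In replicate 2 against the others, the log2 difference was -0.51 for Mrpl12 and 0.15 for Mrpl20 (edgeR adjusted p = 0.00355 and 0.167).

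Many members share a start region with another gene. Of the 78 members, 33 (42.3%) have the start of a protein-coding gene on the other strand within 1000 bases, beside 10.8% of the protein-coding genes in the table and 16.5% of those tested. Of the 27 that rose, 12 did (44.4%). Of these 12 partners only Tcp1 passed, beside 11% of all genes higher and 9.00% lower. With a replicate block in edgeR's fit Twnk and Cyb5rl did too (adjusted p = 0.0302 and 0.0467), beside 12.6% and 10.6% of all genes. So few partners cannot show whether they followed the members. Mrpl51 faces Ncapd2, at 0.06 in replicates 3 and 4, and Mrpl36 faces Ndufs6, at 0.01, neither of which passed. Mrpl18 faces Tcp1, a chaperonin subunit, which rose by 0.12 (SE 0.03, edgeR adjusted p = 0.00554). Mrpl46 and Mrps11 face each other, at 0.18 and 0.16, and neither passed, although with a replicate block Mrpl46 did (adjusted p = 0.0324). Among partners of members that did not pass, Psma2 (0.20), Hira (0.24), Ndufb5 (0.14) and Ptcd2 (0.16) rose, and Mtbp and Apba3 fell, by 0.44 and 0.19 on the log2 scale. These 6 face Mrpl32, Mrpl40, Mrpl47, Mrps27, Mrpl13 and Mrpl54.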

How the data were processed

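The deposited table holds raw read counts per Ensembl gene for 6 libraries. Per the submitters' processing notes the tools were STAR 2.5.2b, featureCounts 1.5.1 and DESeq2 on GRCm38. RNA of 20000 to 50000 cells was, per the labels' protocols, made into stranded mRNA libraries, and both single-read and paired-end runs are named. The counting's strand setting and annotation release were not given in the sources used here. GENCODE M21 (GRCm38) gave symbols for 49412 of 49671 identifiers.

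Counts were compared in R 4.3.3 with edgeR 4.0.16 (TMM scaling, filterByExpr, robust quasi-likelihood test, Benjamini-Hochberg adjustment over all tested genes, threshold 0.05). CPM values are TMM-scaled, and ratios within pairs use log2 CPM with a prior count of 2. Expression-matched genes have an average log2 CPM between the members' 10th and 90th percentiles, 4.51 and 6.52. The code was tested on simulated counts. Alternatives included DESeq2 1.42.0, limma-voom (limma 3.58.1), other scalings and filters, a replicate block and left-out libraries. Named genes were, per comparison, direction and subunit, the 5 members of smallest p (3 for replicate 2), plus the highest and lowest per length and a structural set. Any other gene was chosen with its values in view. Members, lists and the separate comparison of replicates 3 and 4 were chosen with earlier results of these data known.

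The labels give both groups the numbers 2, 3 and 4. After removal of the group means, equal-numbered libraries correlated over genes by 0.670 (number 2), 0.554 (3) and 0.489 (4), each over 0.1, and by that rule the numbers were taken to pair the samples. Unequal numbers 3 and 4 correlated about as well, at 0.489 and 0.476, so the values set replicate 2 apart more than they single out equal numbers. Between replicates 3 and 4 alone the paired differences correlated at 0.0927, which is under 0.1. The main fits of the hairpin groups left the pairing out, and the replicate block was an alternative only. Mitochondrial protein sequences were not used here.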

Additional observations from a re-analysis of the deposited data

Results flagged for a closer look

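The shCxxc5 effect of 18 members differed between replicate 2 and replicates 3 and 4 by the term fitted for that difference (edgeR, adjusted p under 0.05, beside 16.8% of all genes with a larger effect in replicate 2 and 19.0% with a smaller). The term rests on 1 replicate 2 library in each group, takes its spread from replicates 3 and 4, and assumes that the replicate 2 libraries vary like them. The difference of log2 fold changes was above 0 for 10 members: Mrpl1 0.77, Mrps22 0.63, Mrpl35 0.56, Mrps14 0.47, Mrpl19 0.46, Mrpl45 0.42, Mrps31 0.35, Mrps30 0.30, Mrpl11 0.30 and Mrpl2 0.28. It was below 0 for 8 members: Mrpl52 -0.51, Mrps11 -0.49, Mrps18b -0.34, Mrps23 -0.32, Mrpl50 -0.29, Mrps5 -0.29, Mrpl17 -0.23 and Mrpl20 -0.22. DESeq2 called 6 of these differences above 0 and 0 below, beside 8.29% and 8.03% of all genes.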

How the results depend on the processing

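Over all 6 libraries 0 members passed in either direction under all 15 alternatives, and in replicates 3 and 4 no member fell under any of 13. The 27 members higher there became 9 with DESeq2 and 9 to 20 with a library left out. The large subunit median of 0.14 became 0.12 with upper-quartile scaling and 0.11 on library totals. For replicate 2 against the others, 2 members higher and 21 lower were called on library totals, 18 lower without the group term (beside 13.7% of all genes), and 0 to 6 higher and 11 to 52 lower with a library left out. The replicate 2 term for the hairpin effect called 6 higher and 0 lower with DESeq2 (beside 8.29% and 8.03% of all genes) and 16 and 3 on library totals (beside 19.5% and 15.9%). The cause was not tested.

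The replicate block gave 0 members over all 6 libraries, beside 0% of all genes. At an unadjusted p under 0.05 in edgeR's fit there were 18 members, beside 1796 of all 14637 genes. Without the block these were 4 members and 575 genes, so the gain was not particular to the members. In replicates 3 and 4 the block gave 30 members higher, beside 12.6% of all genes, against 27 beside 11% without it. The 30 are the 27 with Mrpl40, Mrpl46 and Mrps18a. The block changed no other call of a member in these fits.

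The sign of values near 0 is not settled. Over all 6 libraries without a filter, Mrps11 and Mrps6 became 0.004 and 0.005, and with a library left out the ranges were -0.21 to 0.10 for Mrpl23, -0.11 to 0.18 for Mrps11, -0.10 to 0.13 for Mrps6, -0.10 to 0.001 for Mrpl10 and -0.057 to 0.01 for Mrpl17. In replicates 3 and 4, Mrps33 became 0.014 with limma-voom, and left-out ranges were -0.28 to 0.17 for Mrps36, -0.082 to 0.046 for Mrpl58, -0.088 to 0.038 for Mrpl10, -0.064 to 0.023 for Mrpl9, -0.044 to 0.018 for Mrps14, -0.16 to 0.13 for Mrps33, -0.074 to 0.041 for Mrpl1, -0.067 to 0.21 for Mrpl23 and -0.081 to 0.026 for Mrps27. Where 1 library was left in an arm, it was assumed to vary like the other arm. With 2 libraries per group, members of few reads such as Mrps36 and Mrps33 could not show changes of 1.2-fold.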
